A study of Homo sapiens with 2 samples.

Results

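The APOBEC3 cytidine deaminases are a family of 7 genes, APOBEC3A, APOBEC3B, APOBEC3C, APOBEC3D, APOBEC3F, APOBEC3G and APOBEC3H, that lie side by side on the long arm of chromosome 22. They were chosen by name from the deposited expression table, in which 6 of the 7 have a row of their own among 21382 named genes. APOBEC3B has none. The table holds TPM values, which give a gene's share of the transcripts in its library after correction for transcript length, for 2 human prostate cancer cell lines with 1 RNA-Seq library each. Both lines were left untreated. MDA PCa 2b, a line derived from a bone metastasis, was kept in a modified Ham's F-12 medium with fetal bovine serum, cholera toxin, epidermal growth factor, phosphoethanolamine, hydrocortisone, selenite and insulin. RC77 T/E, a line from a primary prostate tumour that was immortalised with papillomavirus oncogenes, was kept in serum-free keratinocyte medium to which bovine pituitary extract and epidermal growth factor were added. The line and its medium therefore cannot be told apart in any comparison. With 1 library per line there is no replicate error and no test, the TPM values keep no record of sequencing depth, and every difference given here is one between these libraries.

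APOBEC3 enzymes remove the amino group from cytosine in single-stranded DNA and leave uracil. They are known as restriction factors that mutate the DNA copies of retroviruses and retroelements, and the uracils that some of them leave in the cell's own genome are a source of clustered and scattered C-to-T and C-to-G mutations in tumours. Each enzyme carries 1 or 2 copies of a zinc-binding deaminase domain, in which a histidine and a pair of cysteines hold the zinc ion and a glutamate takes part in the reaction. The genes arose by duplication, so their transcripts share stretches of sequence, and this bears on how reads can be assigned to them.

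The coding bases around the zinc site show how alike the members are. They are printed below from the GENCODE 29 coding sequence, 5′ to 3′ on the plus strand of GRCh38, from the codon of the zinc-binding histidine to that of the last zinc-binding cysteine. Capitals mark the codons of the histidine, the catalytic glutamate and both cysteines. For the members with 2 such sites (APOBEC3B, APOBEC3D, APOBEC3F and APOBEC3G) the second is shown, and APOBEC3A, APOBEC3C and APOBEC3H have 1. All of these windows are exonic and coding.
APOBEC3A, chr22:38961420-38961530: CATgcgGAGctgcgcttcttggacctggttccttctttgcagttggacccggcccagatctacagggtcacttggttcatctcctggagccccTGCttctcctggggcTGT
APOBEC3B, chr22:38991365-38991475: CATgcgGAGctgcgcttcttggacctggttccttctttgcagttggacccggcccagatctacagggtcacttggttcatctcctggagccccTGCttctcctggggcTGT
APOBEC3C, chr22:39017787-39017891: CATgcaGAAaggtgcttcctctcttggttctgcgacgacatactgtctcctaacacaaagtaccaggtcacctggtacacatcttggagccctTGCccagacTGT
APOBEC3D, chr22:39031715-39031819: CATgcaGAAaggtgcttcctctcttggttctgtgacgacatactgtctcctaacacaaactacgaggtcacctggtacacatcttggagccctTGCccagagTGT
APOBEC3F, chr22:39052095-39052199: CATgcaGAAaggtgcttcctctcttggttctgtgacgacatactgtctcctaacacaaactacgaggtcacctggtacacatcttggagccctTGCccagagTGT
APOBEC3G, chr22:39086312-39086416: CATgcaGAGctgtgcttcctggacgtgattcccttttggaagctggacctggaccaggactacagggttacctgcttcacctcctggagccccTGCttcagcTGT
APOBEC3H, chr22:39101246-39101350: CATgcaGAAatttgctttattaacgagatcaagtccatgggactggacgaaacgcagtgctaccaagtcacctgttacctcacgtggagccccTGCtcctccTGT

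The APOBEC3A and APOBEC3B windows were identical over all 111 bases, and those of APOBEC3D and APOBEC3F over all 105. The APOBEC3C window differed from that of APOBEC3D, and from that of APOBEC3F, at 4 of 105 bases. Over all 21 pairs of members the identity of the windows ranged from 58.5% to 100%. Whole coding sequences were less alike, from 38.1% to 87.2%, with APOBEC3D and APOBEC3F the closest pair. APOBEC3A and APOBEC3B were 50.6% identical over the whole coding sequence, since APOBEC3B, at 382 codons, has a second domain that APOBEC3A, at 199 codons, lacks.

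Sharing was also counted over whole transcripts in words of 31 bases, the usual index length of Salmon, the program that estimated the levels. APOBEC3A-205, a transcript that runs from APOBEC3A into APOBEC3B, was left out of these counts, so they understate the sharing of that pair. The word length the authors used is not given in the sources used here. No word of APOBEC3H was found in another member, and 93.7% of the words of APOBEC3C and 90.6% of those of APOBEC3G were their own. The share of own words was 79.3% for APOBEC3A, 77.5% for APOBEC3D, 69.8% for APOBEC3F and 63.5% for APOBEC3B. Own means absent from the other APOBEC3 members, since genes outside the family were not searched. One such gene, AL022318.4, shares 2104 exonic bases with APOBEC3D, so the 77.5% overstates what is particular to APOBEC3D. The shared words of APOBEC3D lay in APOBEC3F (13.6%), APOBEC3B (7.58%) and APOBEC3C (4.71%), and those of APOBEC3F mainly in APOBEC3G (13.0%) and APOBEC3D (10.6%). By this count alone, reads of APOBEC3D and APOBEC3F are harder to assign than those of APOBEC3C, APOBEC3G and APOBEC3H. What the sharing did to the levels was not tested, and the count does not cover the decimal marks described below.

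**Figure D1:**
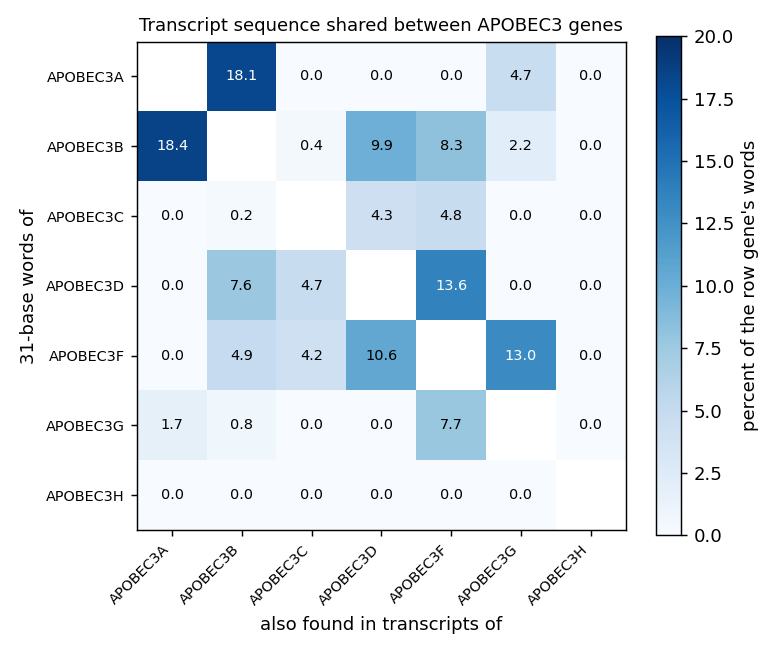
Percent of the 31-base words in each member's GENCODE 29 transcripts (rows) that also occur in the transcripts of each other member (columns). The transcript APOBEC3A-205, which runs into APOBEC3B, was left out. The highest shares join APOBEC3A with APOBEC3B (18.1% and 18.4%) and APOBEC3D with APOBEC3F (13.6% of the words of APOBEC3D), and the row of APOBEC3H is at 0 throughout.

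APOBEC3A and APOBEC3B need separate mention, because the APOBEC3A row may hold reads of both. APOBEC3B spans chr22:38982347-38992804 in GENCODE 29, and the listed span of the APOBEC3A row, chr22:38952741-38992778, runs through all but the end of it. One GENCODE 29 transcript named for APOBEC3A, APOBEC3A-205, starts in APOBEC3A, has 5 exons and ends with an exon of 348 bases, chr22:38992431-38992778, that lies inside APOBEC3B. Of its 31-base words, 53.7% also occurred in APOBEC3B transcripts. Which transcripts the authors summed for the row is not given in the sources used here, so its level is that of APOBEC3A with an unknown part of APOBEC3B. Missing rows were also counted elsewhere. Of 1938 pairs of protein-coding genes that share exonic bases on 1 strand, exactly 1 gene of the pair had a row in 1052 (54.3%). Both genes had a row in 263 pairs (13.6%), and the rest had none. Of the genes in no such pair 8.83% lacked a row, a share of genes and not of pairs. Whether shared exons bear on the missing row of APOBEC3B was not tested. The long noncoding APOBEC3B-AS1, on the opposite strand, shares 151 exonic bases with APOBEC3A and 244 with APOBEC3B and was listed at 0 in both lines. The library kit keeps strand, but whether the levels used it is not stated.

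Together the 6 rows amounted to 7.32 TPM in MDA PCa 2b against 61.6 TPM for RC77 T/E, a ratio of 8.41. These sums rest on the placing of decimal marks that the table had lost. For APOBEC3C in RC77 T/E the deposited digits, mean and error also allowed 4.25 or 425.2 TPM, for APOBEC3G 63.7 or 637.4 TPM, and for the APOBEC3A row 53.4 and 84.9 TPM or 533.7 and 849.4 TPM in MDA PCa 2b and the other line, and the marks printed by the study itself were followed. At the marks followed, most of the difference lay in APOBEC3C, and without it the sums were 7.32 and 19.0 TPM, a ratio of 2.60. Part of the study's rule for an expressed gene, an average of 1 TPM over its samples, was applied here to each line. At 1 TPM or more, 2 rows counted as expressed in MDA PCa 2b (APOBEC3A and APOBEC3F), against 4 in RC77 T/E (those and APOBEC3C and APOBEC3G). Over all 21382 genes, 10607 and 11286 counted as expressed in these lines. The level was higher in RC77 T/E for 5 of the 6 rows. Of the 11624 genes with a mean of 1 TPM or more, 44.4% were higher in that line. APOBEC3D and APOBEC3H lie below that mean, so the sets are not alike and the share is given for scale only. Differences are given below as log2 ratios of RC77 T/E over MDA PCa 2b after adding 1 TPM to each value, a scale that understates the change of low genes. On it, 2 of the 4 rows with a mean of 1 TPM or more (APOBEC3C and APOBEC3G) were 2-fold or more higher in RC77 T/E, against 19.4% of genes, and none was so in MDA PCa 2b, against 20.1%. Both passed the mean of 1 TPM only through RC77 T/E, so their difference was fixed by the filter and the count carries no further weight. The median log2 ratio over all genes was -0.15.

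**Figure D2:**
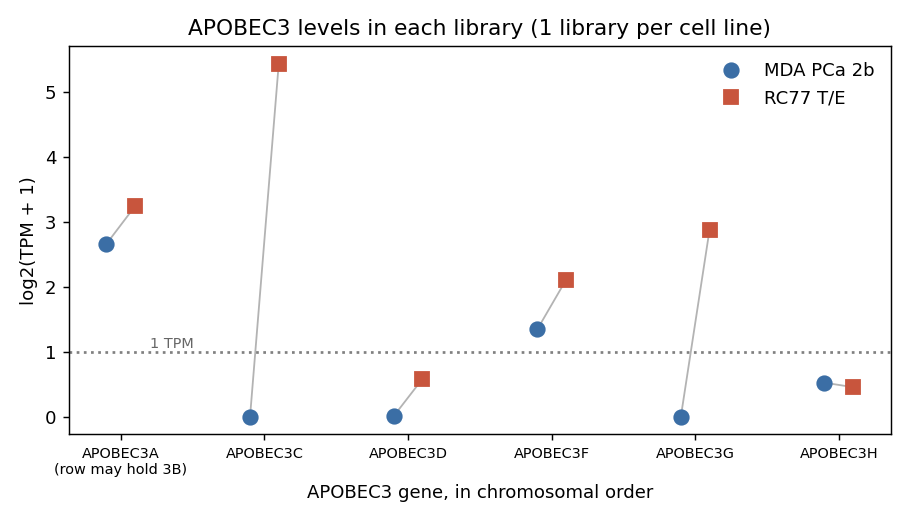
Level, as log2(TPM + 1), of the 6 APOBEC3 rows in both lines, 1 library each, in chromosomal order, with 1 TPM drawn as a dotted line and a grey line joining the points of each gene. APOBEC3C stands highest, with 42.5 TPM in RC77 T/E, and is listed at 0 in the other line, whereas APOBEC3H is below 1 TPM in both lines.

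APOBEC3C (ENSG00000244509, chr22:39014257-39020352, plus strand), a single-domain member that is expressed in many tissues, was listed at 0 in MDA PCa 2b but reached 42.5 TPM in RC77 T/E. The log2 ratio was 5.44. It was the highest member in RC77 T/E and made up 69.1% of the family sum there. No fold is given, since a listed 0 is not a measured absence. EEF1A1, a translation factor that every cell uses, was also listed at 0 in MDA PCa 2b, against 2393 TPM in RC77 T/E, and was the only 1 of 20 such genes below 1 TPM in either line. Among genes with a mean of 1 TPM or more, 1.74% were listed at 0 in MDA PCa 2b, against 1.21% in RC77 T/E. The 3 protein-coding genes whose pair of levels lay nearest to that of APOBEC3C, among 11764 candidates, were PPP1R14C (0.0378 and 41.4 TPM), FHL2 (0.0541 and 41.3 TPM) and FERMT1 (0.0647 and 42.5 TPM), with MDA PCa 2b given first. Their distances on the log2 scale were 0.0650, 0.0870 and 0.0904. The likeness rests on 2 libraries alone.

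APOBEC3G (ENSG00000239713, chr22:39077067-39087743, plus strand), the best-studied member, which is packaged into HIV particles that lack Vif, was listed at 0 in MDA PCa 2b, while RC77 T/E had 6.37 TPM. The log2 ratio was 2.88. It contributed 10.4% of the family sum in RC77 T/E. APOBEC3G is known to be high in lymphocytes, whose markers CD3D and MS4A1 were listed at 0 in both lines.

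The APOBEC3A row (ENSG00000128383, plus strand) was the highest of the family in MDA PCa 2b, at 5.34 TPM, and was somewhat higher in RC77 T/E, at 8.49 TPM. The log2 ratio was 0.58 and the plain ratio 1.59. The row made up 72.9% of the family sum in MDA PCa 2b but 13.8% in RC77 T/E. APOBEC3A and APOBEC3B are the members most often linked to mutations in tumours, and APOBEC3A is known to be high in monocytes and in keratinocytes. The monocyte and macrophage markers CD14 and CD68 were at 0.0730 and 0.663 TPM in MDA PCa 2b, against 4.92 and 37.9 TPM in RC77 T/E. PTPRC, which marks all white blood cells, was listed at 0 in RC77 T/E and had 0.0113 TPM in the other line. Of 12 blood and immune markers, 0 reached 1 TPM in MDA PCa 2b, against 2 in RC77 T/E. These markers summed to 1.57 and 42.9 TPM, with 4 and 7 of them listed at 0, and most of the second sum was CD68. LYZ and ITGAM, of the same markers, went the other way, at 0.501 and 0.0796 TPM in MDA PCa 2b. In RC77 T/E, LYZ was listed at 0 and ITGAM was at 0.0241 TPM.

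APOBEC3F and APOBEC3D are double-domain members that restrict HIV together with APOBEC3G. APOBEC3F (ENSG00000128394, chr22:39040604-39055972, plus strand) had 1.54 TPM in MDA PCa 2b, against 3.31 TPM in RC77 T/E. Its plain ratio was 2.15, and its log2 ratio of 0.76 was under the 2-fold line because of the added 1 TPM. APOBEC3D (ENSG00000243811, chr22:39021113-39033277, plus strand), whose zinc-site bases printed above are those of APOBEC3F, had 0.00520 TPM in MDA PCa 2b, against 0.495 TPM in RC77 T/E, and so lay below 1 TPM in both. The plain ratio of 95.3 rests on a value close to 0, and the log2 ratio was 0.57. GENCODE 29 also holds AL022318.4 on the same strand, which shares 2104 exonic bases with APOBEC3D and 17 with APOBEC3C and has no row of its own here.

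APOBEC3H (ENSG00000100298, chr22:39097224-39104067, plus strand), a single-domain member whose protein stability is known to vary between its common alleles, was the only row that was higher in MDA PCa 2b. The levels were 0.438 TPM there, against 0.371 TPM in RC77 T/E, a log2 ratio of -0.07 that turned positive, to 0.08, when the ratios were centred on the median of all genes. Centring moved every log2 ratio by 0.15, and the other 5 rows kept their direction. APOBEC3H was also the only member with a RefSeq promoter window (GRCh38.p14, 300 bases around the gene's start). Searched on both strands, the window held CCAAT, as 34.6% of 35116 promoter windows did. The core of the interferon-stimulated response element was not in the window and was in 3.57% of all windows. The E2F letters TTTCCCGC and TTTGGCGC (1.63% and 0.652%), TTTGAA (15.2%), the GC box GGGCGG (45.0%) and TATAAA (11.5%) were not in it either.

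The order of the members differed between the lines. In MDA PCa 2b it ran APOBEC3A, APOBEC3F, APOBEC3H and APOBEC3D, with APOBEC3C and APOBEC3G listed at 0. The neighbours in that order were 3.47, 3.51 and 84.4 times apart. In RC77 T/E it ran APOBEC3C, APOBEC3A, APOBEC3G, APOBEC3F, APOBEC3D and APOBEC3H, with steps of 5.01, 1.33, 1.93, 6.68 and 1.34 times. Without a second library of either line no spread is at hand to say which neighbours differ, and the steps of 1.33 and 1.34 are the smallest.

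The genes around the cluster were compared in the same way. Of 21 other protein-coding genes that start within 500 kb of the cluster, 16 had a mean of 1 TPM or more. Their median log2 ratio was -0.87, against -0.15 for all genes. Of these 16 neighbours 2 were 2-fold or more higher in RC77 T/E, where 19.4% of all genes were. KDELR3, a receptor that returns proteins to the endoplasmic reticulum, stood at 6.66 times its MDA PCa 2b level and PDGFB, a platelet-derived growth factor chain, 12.9 times. A further 7 were 2-fold or more higher in MDA PCa 2b, where 20.1% of all genes were. Among these were RPL3, a ribosomal protein (1965 and 868.1 TPM, log2 ratio -1.18), and ATF4, a transcription factor of the stress response (812.8 and 317.1 TPM, log2 ratio -1.36). The others were CBY1, TOMM22, CBX6, CBX7 and RPS19BP1. APOBEC3D and APOBEC3F, which lie between APOBEC3C and APOBEC3G, had log2 ratios of 0.57 and 0.76, as the plot along the cluster shows.

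**Figure D3:**
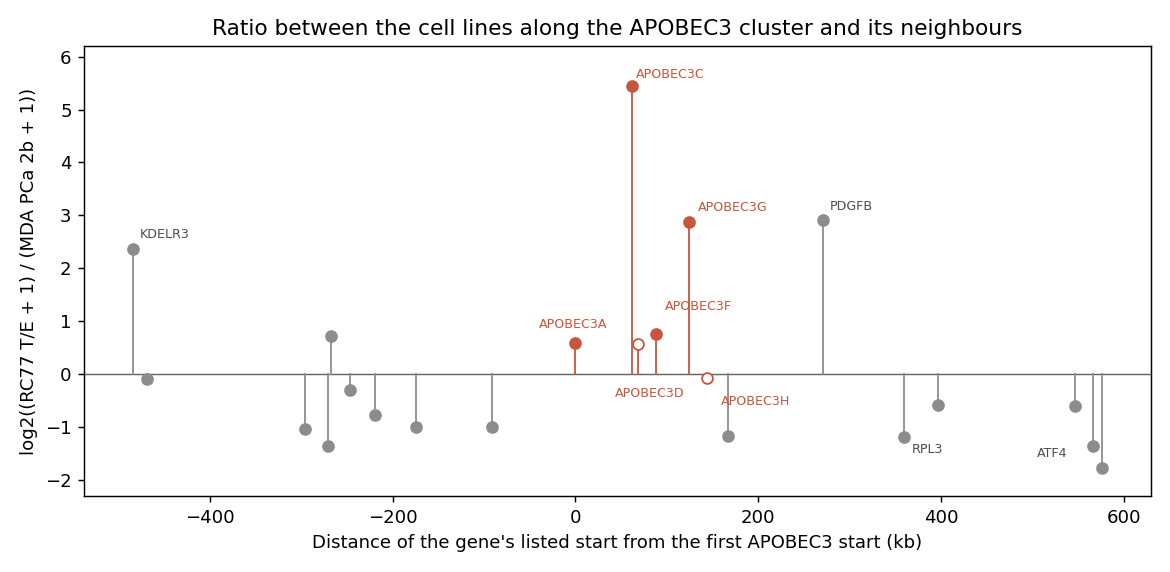
Log2 ratio of RC77 T/E over MDA PCa 2b, after adding 1 TPM, by the distance of each gene's start from that of APOBEC3A in kb. The APOBEC3 rows are red, open where the mean was below 1 TPM. The 16 neighbouring protein-coding genes with a mean of 1 TPM or more are grey. APOBEC3C is at 5.44 and APOBEC3G at 2.88, both listed at 0 in MDA PCa 2b, and the neighbours have a median of -0.87.

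Other members of the wider deaminase family were near 0. APOBEC1, the editor of apolipoprotein B mRNA, was listed at 0 in both. APOBEC2 was at 0.0450 and 0.0206 TPM, and APOBEC4 was listed at 0 in MDA PCa 2b, with 0.0176 TPM in RC77 T/E. None of these reached 1 TPM.

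The genes that remove uracil and repair the gap all had levels of 1 TPM or more in both lines. Of 13 such genes 1 was 2-fold or more higher in RC77 T/E, against 19.4% of all genes, namely MBD4, a glycosylase that removes uracil and thymine mispaired with guanine (4.35 and 14.7 TPM, log2 ratio 1.55). In MDA PCa 2b 4 were 2-fold or more higher, against 20.1% of all genes. APEX1, the endonuclease that cuts the strand after the base is removed, had 208.3 TPM there, against 92.6 TPM in RC77 T/E (log2 ratio -1.16). The uracil glycosylase SMUG1, the gap-filling polymerase POLB and the break sensor PARP1 were 2.17, 2.61 and 4.12 times as high in MDA PCa 2b. The remaining 8, among them the main uracil glycosylase UNG, 1.94 times as high in MDA PCa 2b, were within 2-fold after adding 1 TPM. By plain ratio 2 of them were past it, LIG1, 2.10 times as high in RC77 T/E, and LIG3, 2.09 times as high in MDA PCa 2b. The median of the list was -0.50, against -0.15 over all genes.

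Cofactors and other restriction factors were uneven. Of 13 listed genes 12 had a row and 10 a mean of 1 TPM or more. BST2, which tethers virus particles to the cell surface, had 3.33 TPM in MDA PCa 2b, against 291.0 TPM in RC77 T/E, which is 6.08 on the log2 ratio scale. The membrane protein IFITM1, which hinders virus entry, had 0.434 and 181.0 TPM (log2 ratio 6.99). MX1, a GTPase that blocks influenza and other viruses, had 0.304 and 10.1 TPM (log2 ratio 3.08). IFITM3 was higher in RC77 T/E by a factor of 3.03, which makes 4 genes 2-fold or more higher there, and IFITM2, 2.69 times as high in MDA PCa 2b, was the 1 gene in the other direction. Over all genes the shares were 19.4% and 20.1%. IFITM1 and MX1 passed the mean of 1 TPM only through RC77 T/E, so the direction of their difference was fixed by the filter and the count of 4 carries little weight. The 5 within 2-fold included CBFB, the partner through which HIV Vif marks APOBEC3 proteins for breakdown, and SAMHD1, which depletes nucleotides. The median was 0.43. MX2 was listed at 0 in MDA PCa 2b, against 1.41 TPM in RC77 T/E, with a mean under 1 TPM.

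Interferon signalling and NF-kappaB, pathways known to raise several APOBEC3 genes, were compared in the same way. Of 10 interferon signalling genes 2 were 2-fold or more higher in RC77 T/E and none in MDA PCa 2b, with a median log2 ratio of 0.60. The count in RC77 T/E is close to the 19.4% of all genes, against 20.1% for MDA PCa 2b, and is no result about the list. The 2 genes were the receptor kinase JAK1, 18.8 times as high, and IRF9, the DNA-binding subunit of the interferon-stimulated complex, 4.82 times as high. Its partner STAT2 was just under the line, at 1.94 times its MDA PCa 2b level. All 5 NF-kappaB subunits were within 2-fold, with a median of 0.08, and RELB, a subunit linked to APOBEC3B expression, was at 10.8 and 11.5 TPM.

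**Figure D4:**
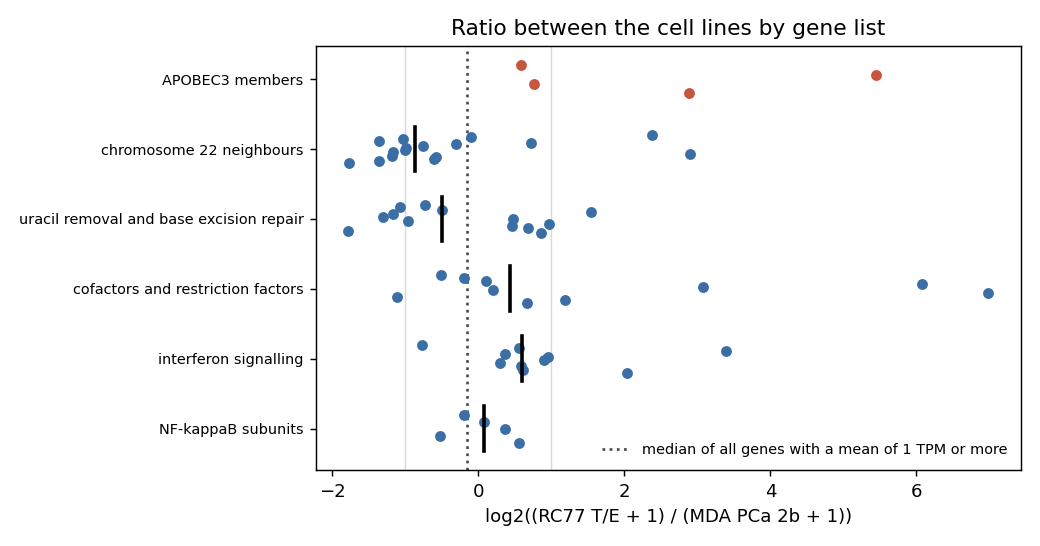
Log2 ratio of RC77 T/E over MDA PCa 2b, after adding 1 TPM, of each gene with a mean of 1 TPM or more in the APOBEC3 family and the lists compared with it. Points are genes, black bars are the medians of the lists other than APOBEC3, pale lines mark 2-fold and the dotted line is the median of all genes (-0.15). The median is -0.50 for the repair list, 0.08 for the NF-kappaB list and -0.87 for the chromosome 22 neighbours, and the pair of APOBEC3 points past 2-fold are APOBEC3C and APOBEC3G, which passed the mean of 1 TPM only through RC77 T/E.

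The lines also differed in some cell type markers, and whether these have a part in the APOBEC3 levels was not tested. The luminal prostate markers KLK3 and TMPRSS2 were at 5323 and 482.9 TPM in MDA PCa 2b. In RC77 T/E, KLK3 was listed at 0 and TMPRSS2 was at 0.108 TPM, so the label of a prostate line was not borne out by these markers there. The basal keratins KRT5 and KRT14 were at 4027 and 3255 TPM in RC77 T/E, against 0.00435 and 37.4 TPM in MDA PCa 2b. KRT18, a keratin of simple epithelia, was at 320.5 and 324.8 TPM.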

How the data were processed

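RNA from 2 untreated human cell lines was sequenced with a directional paired-end kit. The submitters' processing notes name CASAVA, FastQC 0.11.9, Trimmomatic 0.38, Salmon 1.2.0 and GRCh38. The authors deposited 1 table of TPM, with 1 column per line and with their mean and standard error over both lines, which were used only to restore the values. Counts and depth are not given, so no interval was computed.

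In the table, values of 1 or more with at least 3 decimals had lost their decimal mark. Values with fewer decimals were read as written. Each lost mark was restored by keeping the positions (at most 3 digits before the mark) at which both values give the deposited mean and standard error. Of 22704 loci, 16212 allowed 1 position. A further 683 were set by the position printed in a supplement of the study, whose numbers were not otherwise used. The other 5809 were kept at the lowest position, and genes among them are given as ratios, which are the same at every position, whereas list medians and 2-fold counts use the lowest. APOBEC3F needed no outside help. APOBEC3A, APOBEC3C and APOBEC3G were set by the supplement, and the report gives the other values that their digits allow. All 1313 loci with 1 position that were also in the supplement held its values. The procedure was tested on 5000 simulated loci, where all 4248 with 1 position were true. These loci were written by the rules that the procedure assumes, so they cannot show that the rules hold for the deposited values.

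Rows were found by gene name. The 87 repeated rows were counted once. Values under 1e-06 TPM were taken as listed at 0. Ratios used log2 after adding 1 TPM, and a gene was called at 2-fold or more. Named by rule were the APOBEC3 rows, the genes whose exons overlap them, the list members past 2-fold and the 3 genes nearest to the highest member. APOBEC1, APOBEC2, APOBEC4, UNG, LIG1, LIG3, CBFB, SAMHD1, MX2, STAT2, RELB, LYZ and ITGAM were named after their values were seen. A few list members and markers are not reported here. The members and lists were chosen with earlier results of these data known. TREX1, of the restriction factor list, was not analysed here. Sequences came from GENCODE 29 coding transcripts, read with Biopython 1.88 in Python 3.11.15, and identities from global alignment of coding DNA. Alternatives were a pseudocount of 0.1 TPM, thresholds of 0.5 and 5 TPM, centring, upper-quartile scaling and other positions of the mark.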

Additional observations from a re-analysis of the deposited data

How the results depend on the processing

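The levels of APOBEC3A, APOBEC3C and APOBEC3G depend on where the lost decimal mark is placed. At the highest position that fits the deposited mean and error, APOBEC3A would be at 533.7 TPM in MDA PCa 2b with 849.4 TPM in RC77 T/E, APOBEC3C at 425.2 TPM and APOBEC3G at 637.4 TPM in RC77 T/E, and the log2 ratios of the last pair would be 8.74 and 9.32. At the lowest position APOBEC3C would be at 4.25 TPM in RC77 T/E. With a pseudocount of 0.1 TPM the log2 ratios were 8.74 for APOBEC3C, 2.50 for APOBEC3D, 6.02 for APOBEC3G and -0.19 for APOBEC3H. Centring on the median of all genes turned APOBEC3H to 0.084, and upper-quartile scaling gave -0.026. With 5 TPM as the level of an expressed gene, 1 row counted in MDA PCa 2b. Uracil removal genes 2-fold or more higher in RC77 T/E numbered 2 with a pseudocount of 0.1 TPM, 3 after centring and 2 at the highest mark, an alternative chosen after seeing the data. After centring, interferon signalling genes higher in RC77 T/E numbered 4 and restriction factors higher in MDA PCa 2b 0. No paired analysis was possible because there is 1 library per line. Without replicates, counts or depth, no difference could be set against its error.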
